A study of Mus musculus with 60 samples.

Results

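The nuclear-encoded genes of oxidative phosphorylation were described in RNA-Seq libraries of mouse cortex and striatum. Members were the entries whose gene name starts with Nduf, Sdh, Uqcr or Atp5, or with Cox followed by a digit from 4 to 8, and the 4 pseudogenes among these names were left out. This gave 95 members of 47574 entries, with 38 in complex I, 4 in complex II, 8 in complex III, 17 in complex IV, 15 in complex V and 11 assembly factors, and 2 more, Atp5s and Atp5sl, that share a name with the ATP synthase without being counted as its subunits here. A filter on low values, a mean of at least 0.5 rescaled FPKM over the 60 libraries, was passed by 94 of the 95, and the other one, the testis isoform Cox8c, was listed at 0 in every library. Cox4i1, the main isoform of cytochrome c oxidase subunit 4, was not analysed here.

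The libraries came from c57BL-6N mice aged 3 months and were labelled in 10 groups of 6, each with 3 males and 3 females. In either tissue the Δ12 line gave +/+, Δ12/+ and Δ12/Δ12 mice. In this line part of exon 12 of the huntingtin gene Htt is deleted in frame in every cell from the germline on. The KO line gave +/+ and KO/+ mice. It goes back to a single founder whose imprecise deletion took the splice donor of the same exon, and is represented here by heterozygotes alone. The study asked whether the shortened Htt allele changes the transcriptome of the adult brain. Values are FPKM (fragment counts scaled to transcript length and to the mapped total of the library), rescaled between libraries by the median ratio of their entries, and differences are on the scale of log2(rescaled FPKM + 0.5), which understates the change of low genes.

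Oxidative phosphorylation is the last stage of respiration in the inner mitochondrial membrane. Complexes I and II pass electrons from NADH and succinate to ubiquinone, complex III passes them on to cytochrome c, and complex IV passes them to oxygen. Complexes I, III and IV pump protons, and complex V, the ATP synthase, uses the gradient to make ATP. Most subunits are encoded in the nucleus, while a small core of complexes I, III, IV and V is encoded by the mitochondrial genome, and complex II is encoded by the nucleus alone. Neurons depend on this pathway for ion pumping and synaptic activity.

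The libraries did not follow their tissue labels, and this sets what can be compared. Slc17a7 encodes the vesicular glutamate transporter that marks excitatory neurons of the cortex. It ranged from 120.8 to 233.8 FPKM in 30 libraries, here called cortex-like, and from 4.81 to 64.8 FPKM in the other 30, called striatum-like. Hierarchical clustering of the libraries gave the same class for 60 of 60. All 8 markers of striatal projection neurons, among them Drd2 (0.81 against 50.2 rescaled FPKM) and Ppp1r1b (60.5 against 521), were lower in the cortex-like libraries with no overlap between the classes, and of the other 5 markers of cortical excitatory neurons 4 had higher medians and Cux2 a lower one. The class went against the labelled tissue in 30 of 60 libraries, since +/+ and Δ12/+ of the Δ12 line were cortex-like and all of the KO line striatum-like under both tissue labels. Among Δ12/Δ12 libraries, those labelled male were cortex-like and those labelled female striatum-like. Sex-linked transcripts went against the labelled sex in 29 libraries, in all 10 groups. In 1 further library, +/+ cortex male 1 of the Δ12 line, Xist was at 14.7 rescaled FPKM. Of the Y-linked transcripts Uty was at 1.28 there, and Ddx3y, Kdm5d and Eif2s3y were at 0. Htt itself was at 12.7 to 20.7 rescaled FPKM in the KO line, where KO/+ and +/+ overlapped in both labelled tissues, at 4.81 to 11.2 in +/+ and Δ12/+ of the Δ12 line, and at 7.64 to 18.7 in Δ12/Δ12. The title of 1 library, KO/+ striatum female 3, names the other line. Every labelled comparison is therefore one of libraries as labelled, and the differences between the classes, which were defined from the data, are given as a description with no test. In such bulk samples, fewer cells of a type and less RNA per cell cannot be told apart.

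The classes differed in the level of nearly all members. The median log2 difference, cortex-like minus striatum-like, was 1.34 over 94 members, against -0.03 over all 16076 entries that passed the filter. The difference was positive for 86 members and negative for 8 on this scale, positive for 91 and negative for 3 on the FPKM as deposited, and positive for 74 and negative for 20 after quantile normalization. The ranges of the 30 and 30 libraries did not overlap for 63 members, of which 62 were higher and 1, Sdha, was lower in the cortex-like libraries, where 16.9% of all entries were higher and 19.3% lower without overlap. On the rescaled FPKM, the median was highest in complex III at 2.08, followed by 1.59 in the assembly factors, 1.5 in complex V, 1.28 in complex I, 1.09 in complex II and 1.06 in complex IV. After quantile normalization the order was another one, with complex III at 0.73, behind the assembly factors at 1.40 and complex V at 0.93.

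**Figure D1:**
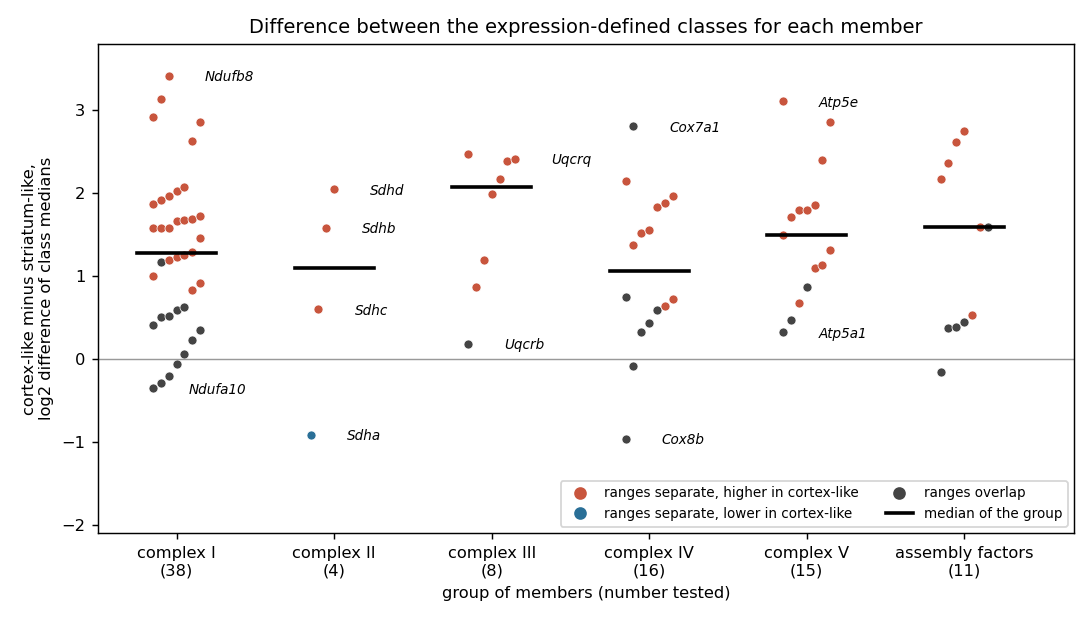
Each point is 1 of the 94 members that passed the filter, plotted by group of members (horizontal axis) against the log2 difference between the medians of the 30 cortex-like and the 30 striatum-like libraries (vertical axis). Of these members 86 lie above 0 and 8 below, or 74 and 20 after quantile normalization, and Sdha is the only member below 0 whose libraries do not overlap.

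Quantile normalization gave a smaller median difference, 0.60, with the lowest median, 0.44, in complex II, and the deposited FPKM a larger one, 1.68, on a scale where the median of all entries moved to 0.18. Within the 30 libraries whose class matches their labelled tissue, 15 against 15, the members' median was 1.36. Within the Δ12/Δ12 libraries, 6 against 6 of 1 line and genotype, it was 1.28, against -0.03 over all entries. Sex labels and class cannot be told apart in that last set.

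Complex I, the NADH dehydrogenase, ranged from a log2 difference of -0.35 to 3.42 among its subunits. Its 25 members without overlap (65.8%) were all higher in the cortex-like libraries, where 16.9% of all entries were. The complex had a median of 0.50 after quantile normalization. The subunits that take up electrons from NADH, Ndufv1 and Ndufv2, were at medians of 168 and 200 rescaled FPKM in the cortex-like against 44.0 and 50.6 in the striatum-like libraries, log2 differences of 1.92 and 1.97. Ndufs7, which lines the ubiquinone site, differed by 1.26. Ndufs1, the largest iron-sulfur subunit of the same arm, was at 26.2 to 46.4 (median 32.3) in the cortex-like and 27.1 to 34.6 (median 30.9) in the striatum-like libraries, ranges that lie over each other, and its difference of 0.06 became -0.34 after quantile normalization.

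The accessory subunits of complex I differed most between families. The 10 Ndufb genes, whose products sit in the membrane arm, had a median difference of 1.90. The 14 Ndufa genes, counted by name with Ndufa4 and Ndufa4l2 among them, had one of 0.72, and the others of these are spread over both arms. Ndufb8 was at 513, 768 and 1250 (lowest, median and highest) in the cortex-like and at 61.6, 71.4 and 80.7 in the striatum-like libraries. Its lowest cortex-like library was thus far above its highest striatum-like one, and at a log2 difference of 3.42, or 10.7-fold, it was the member with the largest difference on this scale. Ndufb2 (3.13), Ndufa7 (2.92) and Ndufb6 (2.85) followed within the complex, with no overlap. At the other end was Ndufa10, an accessory subunit of the proton-pumping arm, at 18.4, 26.6 and 33.4 in the cortex-like and 27.3, 34.1 and 39.5 in the striatum-like libraries. These ranges overlapped, and the difference of -0.35 was -0.03 on the deposited FPKM and -0.73 after quantile normalization. Ndufa4, a subunit now assigned to complex IV in spite of its name, differed by 1.46. Its paralog Ndufa4l2, known as a hypoxia-induced gene, was at medians of 0.89 and 1.19, too low for a direction. Both are counted in complex I here, by name.

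Complex II, succinate dehydrogenase, was the complex with subunits on both sides among the members without overlap. Sdha, the flavoprotein that oxidizes succinate, was at 21.1, 32.5 and 40.9 in the cortex-like and at 51.9, 61.6 and 72.2 in the striatum-like libraries. Every cortex-like library lay below every striatum-like one, with a log2 difference of -0.91, and the difference was also negative on the deposited FPKM (-0.54) and after quantile normalization (-1.62). Sdhb, the iron-sulfur subunit bound to Sdha, was at 105, 142 and 267 against 38.3, 46.8 and 54.7, a difference of 1.59 in the other direction. The membrane anchors followed Sdhb, with Sdhc at 38.4, 45.1 and 65.6 against 23.7, 29.5 and 37.5 (0.60) and Sdhd at 70.4, 97.9 and 122 against 20.4, 23.3 and 26.4 (2.05). Neither anchor overlapped between the classes. By rescaled FPKM, Sdha had the highest median of the 4 subunits in the striatum-like libraries and the lowest in the cortex-like ones. The longest transcripts are of 2900 (Sdha), 1232 (Sdhb), 3171 (Sdhc) and 1231 (Sdhd) nucleotides, and the part of length in this order was not tested.

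**Figure D2:**
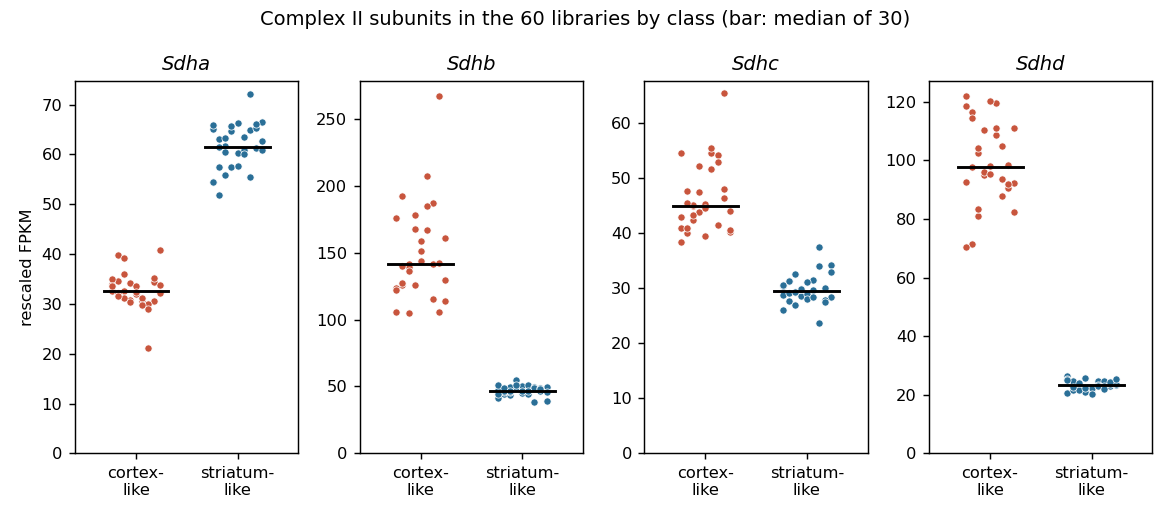
Rescaled FPKM (vertical axis) of the 4 complex II subunits in the 30 cortex-like and 30 striatum-like libraries, 1 point per library, with a bar at the median. Sdha lies lower in every cortex-like library, at 21.1 to 40.9 against 51.9 to 72.2, while Sdhb, Sdhc and Sdhd lie higher.

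The promoter windows of these opposite subunits, and of the complex I members at both ends of the range, are shown to set their sequences side by side. They are RefSeq windows of 300 bases on GRCm38.p6, from 250 before to 50 after the annotated start, read 5′ to 3′ on the strand of the gene, with every match to 6 motifs in capitals. The motifs, searched on both strands, are GCGCA, any base and GCGC (NRF1), CCGGAAG (ETS family, which includes GABPA), TCAAGGTCA (estrogen-related receptors), AAGATGGCG (YY1), GGGCGG (Sp1) and TGACGTCA (cyclic AMP response element), and no 2 matches overlap in these 5 windows. NRF1 and GABPA are known as regulators of respiratory chain genes. Sdhc had no window.
Sdha, chr13:74350191-74350490, minus strand: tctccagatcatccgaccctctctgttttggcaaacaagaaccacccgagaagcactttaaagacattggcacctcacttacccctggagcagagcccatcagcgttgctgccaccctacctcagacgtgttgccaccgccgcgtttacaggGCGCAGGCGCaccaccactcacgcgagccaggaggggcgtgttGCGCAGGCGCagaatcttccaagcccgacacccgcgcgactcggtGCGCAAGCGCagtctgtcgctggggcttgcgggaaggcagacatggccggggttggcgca
Sdhb, chr4:140961021-140961320, plus strand: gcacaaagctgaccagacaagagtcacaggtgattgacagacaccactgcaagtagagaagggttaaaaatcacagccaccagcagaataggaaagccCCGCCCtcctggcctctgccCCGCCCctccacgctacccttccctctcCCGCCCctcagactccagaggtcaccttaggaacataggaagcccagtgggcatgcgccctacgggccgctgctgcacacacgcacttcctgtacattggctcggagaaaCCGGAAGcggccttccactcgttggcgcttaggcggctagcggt
Sdhd, chr9:50603800-50604099, minus strand: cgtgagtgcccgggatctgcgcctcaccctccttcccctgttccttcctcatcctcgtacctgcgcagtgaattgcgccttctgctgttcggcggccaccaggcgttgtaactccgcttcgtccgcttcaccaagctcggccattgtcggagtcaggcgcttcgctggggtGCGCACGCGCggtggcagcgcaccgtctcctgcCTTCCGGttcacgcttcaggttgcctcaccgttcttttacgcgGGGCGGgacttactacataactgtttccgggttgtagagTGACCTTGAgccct
Ndufb8, chr19:44555393-44555692, minus strand: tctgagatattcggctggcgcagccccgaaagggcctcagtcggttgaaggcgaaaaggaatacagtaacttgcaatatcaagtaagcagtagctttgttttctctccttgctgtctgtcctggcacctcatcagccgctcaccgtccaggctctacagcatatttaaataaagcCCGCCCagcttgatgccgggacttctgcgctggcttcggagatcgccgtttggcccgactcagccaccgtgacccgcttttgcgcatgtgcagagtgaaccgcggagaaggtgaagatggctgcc
Ndufa10, chr1:92473709-92474008, minus strand: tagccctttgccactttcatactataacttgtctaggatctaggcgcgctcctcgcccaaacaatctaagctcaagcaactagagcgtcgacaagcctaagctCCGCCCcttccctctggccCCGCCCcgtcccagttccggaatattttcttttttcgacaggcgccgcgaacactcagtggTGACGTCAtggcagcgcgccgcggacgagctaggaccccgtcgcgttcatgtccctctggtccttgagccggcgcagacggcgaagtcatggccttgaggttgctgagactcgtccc

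The Sdha window held 3 NRF1 matches and none of the other motifs. That of Sdhb held 1 ETS and 3 Sp1 matches, and that of Sdhd held 1 match each to the NRF1, ETS, estrogen-related receptor and Sp1 letters. The window of Ndufb8 held 1 Sp1 match, and that of Ndufa10 held 2 Sp1 matches and the cyclic AMP response element. RefSeq windows were found for 77 of 95 members (82 windows). NRF1 letters were in 26.8% of these against 4.6% of all 32851 windows of the same length, ETS letters in 24.4% against 8.86%, YY1 letters in 8.54% against 1.40%, Sp1 letters in 45.1% against 35.7%, cyclic AMP response elements in 4.88% against 1.79%, and estrogen-related receptor letters in 2.44% against 0.423%. A match is a description of the letters and not of binding.

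In complex III, the cytochrome bc1 complex, 7 of 8 subunits (87.5%) were higher in the cortex-like libraries with no overlap, where 16.9% of all entries were. The median of 2.08 was 0.73 after quantile normalization. Uqcrc2, a core subunit of the matrix side, differed by 2.17, and its partner Uqcrc1 by 0.87, a value that was -0.15 after quantile normalization. Uqcrfs1, the Rieske iron-sulfur protein that hands electrons to cytochrome c1, was at 59.6, 73.3 and 115 against 27.3, 31.9 and 38.4, a difference of 1.19. The small subunits Uqcrq (336 to 585 against 74.6 to 109) and Uqcr10 (407 to 831 against 103 to 132) differed by 2.42 and 2.39, and Uqcr10 had the highest median of the complex in the cortex-like libraries at 632. Uqcrb, at medians of 6.59 and 5.73, was the exception with a difference of 0.18 and overlapping ranges, and the authors' confidence interval spans 35.2% of its value to each side in the median library.

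In complex IV, cytochrome c oxidase, 9 of 16 tested members (56.25%) were higher without overlap, where 16.9% of all entries were. None of these 9 was a tissue-specific paralog. Cox8a, the ubiquitous subunit 8, had the highest median of the complex, at 785, 1090 and 1476 against 281, 306 and 378, a difference of 1.83 that was -1.01 after quantile normalization. The same held for Cox6a1 (1.56, or -0.57 after quantile normalization), Cox6c (0.72, or -0.47) and Cox5a (0.64, or -0.39), which are all among the high entries. Cox6b1, at 346 to 841 against 135 to 164, differed by 1.88, Cox7a2l, a factor of supercomplex assembly, by 1.96, Cox7b by 2.15 and Cox7a2 by 1.37. Each of these 4 stayed positive after quantile normalization, at 0.14, 1.06, 1.35 and 0.41. Cox5b, a zinc-binding subunit, was at medians of 14.9 and 8.66, overlapped between the classes, and has a wide interval of 39.4% to each side.

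The isoforms known from heart and skeletal muscle, testis or lung were low in both classes, except for Cox7a1 in the cortex-like libraries. Cox7a1, the muscle isoform of subunit 7a, was the highest of them, at 5.27, 20.4 and 29.3 in the cortex-like and 0.34, 2.47 and 6.92 in the striatum-like libraries. Its difference of 2.81 was the largest of complex IV, and it was 2.77 after quantile normalization, but the ranges overlapped. Cox7a1 made up a median of 10.2% of the sum of Cox7a1 and Cox7a2 in the cortex-like and 3.66% in the striatum-like libraries. The muscle isoforms Cox6a2 and Cox8b made up 0.46% and 0.12% of their pairs in the cortex-like and 0.82% and 0.94% in the striatum-like libraries, and the testis isoform Cox6b2 made up 0.42% and 1.79%. Cox4i2, the lung isoform, was at medians of 1.66 and 1.09, and Cox7b2 at 0.33 and 0.17 with 16 libraries at 0. The differences of Cox6a2 (0.59), Cox6b2 (-0.08), Cox8b (-0.96), Cox4i2 (0.44) and Cox7b2 (0.33) are between overlapping ranges of a few FPKM.

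In complex V, the ATP synthase, all 15 members had a positive difference on the rescaled FPKM, 12 of them with no overlap, while Atp5a1, Atp5b and Atp5g3 turned negative after quantile normalization. Atp5b, the catalytic beta subunit and the highest member of the striatum-like libraries, was at 824, 1043 and 1484 against 561, 650 and 735, a difference of 0.68 that was -2.54 after quantile normalization. Atp5a1, the alpha subunit, was at 176, 203 and 245 against 142, 162 and 178, which overlap, with a difference of 0.32 or -1.32. Atp5c1, the gamma subunit of the central stalk, differed by 1.86. Atp5e, the small epsilon subunit of the same stalk, was at 757, 1111 and 1736 against 109, 128 and 148, a difference of 3.11. It was the highest member of the cortex-like libraries, at 8.62 times its striatum-like level. Atp5k, a subunit of the dimer interface, differed by 2.40, at 20.0, 57.1 and 118 against 6.76, 10.4 and 16.5.

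The genes Atp5g1, Atp5g2 and Atp5g3 encode the same mature c subunit of the rotor ring. Atp5g3 was the highest of them, at medians of 275 and 125 (difference 1.13, or -0.36 after quantile normalization). Atp5g1 was at 76.3 and 26.7 (1.5) and Atp5g2 at 5.53 and 3.83 (0.48). Atp5g1 made up 21.2% of the sum of Atp5g1 and Atp5g3 in the cortex-like and 18.3% in the striatum-like libraries, with overlapping ranges.

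Of the 11 assembly factors, 6 (54.5%) were higher without overlap, where 16.9% of all entries were, and 10 had a positive difference. Ndufaf5, which modifies Ndufs7 during assembly of complex I, differed by 2.76 (medians 70.1 and 9.95), Ndufaf6 by 2.62, and Ndufaf2 by 2.36. Sdhaf1, which helps to insert the iron-sulfur clusters of Sdhb, differed by 2.17 (9.72 and 1.77), and Sdhaf2, which is needed to attach the flavin to Sdha, by 1.59 (15.8 and 4.93). The difference of the flavin factor thus had the opposite sign to that of Sdha. Ndufaf1 was the one negative factor at -0.16, with overlapping ranges. Atp5s and Atp5sl overlapped between the classes, with differences of 0.90 and 0.22.

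Other genes of respiration were read from fixed lists. Their counts without overlap stand beside the 16.9% of all entries that were higher and the 19.3% that were lower. The protein-coding genes of the mitochondrial genome, whose products share complexes I, III, IV and V with the members, differed in the opposite direction. All 13 were lower in the cortex-like libraries, 9 without overlap, with a median of -2.60, from -5.46 for mt-Nd4l (11.7 against 537) to -0.29 for mt-Nd3 (246 against 302). mt-Co1, the catalytic subunit of complex IV, was at 642 against 3890, and mt-Cytb, of complex III, at 130 against 1344. The 11 electron carriers and other chain genes outside the name rule had a median of 1.05, with 8 higher without overlap. Among them were Usmg5 (3.62), an ATP synthase subunit under another name, Atpif1 (2.52), the inhibitor of the ATP synthase, Etfb (1.95), a subunit of the electron transfer flavoprotein, and Cyc1 (1.81), cytochrome c1 of complex III.

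The assembly factors of complexes III, IV and V outside the name rule had a median of 0.76 over 27 genes, with 13 higher and 1, Coa5, lower without overlap. The other complex I assembly factors had a median of 0.58 over 8. The tricarboxylic acid cycle, of which complex II is also a part, had a median of 0.00 over 17 genes. Of these 6 (35.3%) were higher and 2 (11.8%) lower without overlap, where 16.9% and 19.3% of all entries were. The 2 lower genes were Cs, citrate synthase, at 21.4 against 43.2 (-0.999), and Ogdh, of the oxoglutarate dehydrogenase complex, at 41.2 against 61.6 (-0.57). Of the 12 genes that control mitochondrial genes, Esrra was higher (1.22) and Gabpa (-0.91) and the coactivator Ppargc1b (-2.61, at 0.50 against 5.63) were lower without overlap, and Nrf1 (-0.54) and Ppargc1a (-1.16) overlapped. These shares, 8.33% higher and 16.7% lower, were below the 16.9% and 19.3% of all entries. The cytosolic ribosomal protein genes, with a median longest transcript of 1047 nucleotides, had a median difference of 1.24 over 83 genes. Of these 38 (45.8%) were higher without overlap. Their median level was 14.4 rescaled FPKM in the cortex-like and 5.39 in the striatum-like libraries, against 4.82 and 5.08 for all entries.

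Several properties of the libraries moved with the class. The depth implied by the authors' confidence intervals was 12700000 to 19400000 fragments (median 14450000) in the cortex-like and 16400000 to 27500000 (median 18250000) in the striatum-like libraries. The 10 highest entries held 61.6% to 92.3% of the summed FPKM in the first and 56.1% to 85.5% in the second. Ttr, a marker of choroid plexus, was at medians of 6.47 against 938, but the ranges of all 4 choroid plexus markers overlapped between the classes. Of 4 oligodendrocyte markers, 3 were lower in the cortex-like libraries without overlap, where 19.3% of all entries were. Short transcripts were higher in the cortex-like libraries among all entries as well. Entries with a longest transcript over 300 and up to 1000 nucleotides had a median difference of 0.77, those up to 2000 one of 0.51, those up to 4000 one of -0.07 and those over 4000 one of -0.55. The members' medians in these bins were 1.37 (41 members), 1.58 (29), 0.60 (19) and 1.67 (5), above those of all entries in each bin, the last of which holds few members. Over the 94 members the difference had a rank correlation of -0.10 with transcript length and 0.45 with the mean level. The mean level includes the cortex-like values that also enter the difference, so the 0.45 is not between independent values. Over 15986 entries the difference had a rank correlation of -0.38 with length, and in all of these the points share the same 60 libraries. The part of depth, transcript length and cell composition in the members' difference was not tested.

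**Figure D3:**
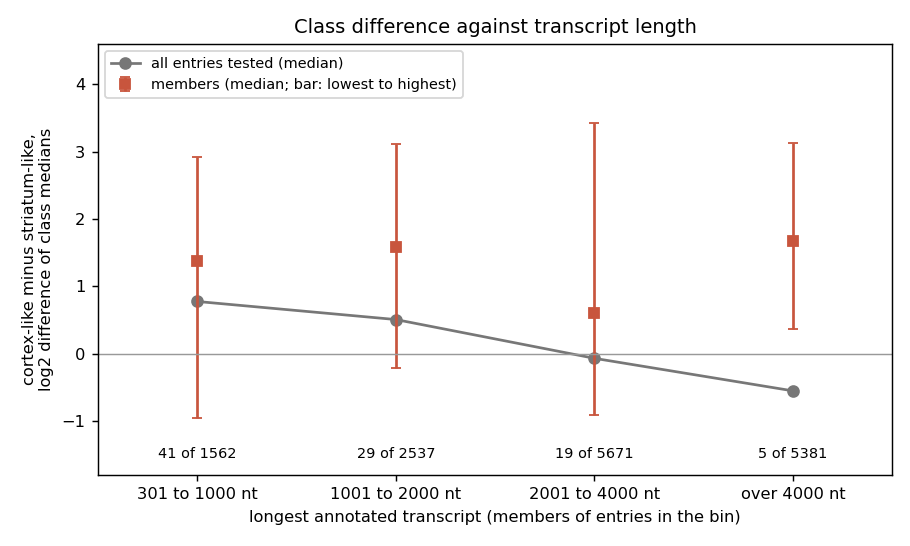
Log2 difference between the classes (vertical axis) by length of the longest annotated transcript in nucleotides (horizontal axis), with the members as points, their median and the median of all entries in each bin. The members' medians are 1.37, 1.58, 0.60 and 1.67, above the 0.77, 0.51, -0.07 and -0.55 of all entries, on the rescaled FPKM.

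Within a class the members varied far less than between classes. The median over the 94 members, on the log2 scale, was 5.90 to 6.61 in the cortex-like libraries (SD 0.16, n = 30) and 4.88 to 5.15 in the striatum-like ones (SD 0.08, n = 30). Single members had a median SD of 0.25 within the cortex-like and 0.14 within the striatum-like class. The order of the members was much the same in both classes, with a rank correlation of 0.91 between their class medians over 94 members of the same 60 libraries.

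The cortex-like libraries with the lowest member levels relative to their class were Δ12/+ cortex female 1 (median deviation -0.28), Δ12/+ striatum male 3 (-0.26) and +/+ cortex male 2 (-0.23). In these libraries the short entries that are no members were also low relative to the long ones, by -0.31, -0.33 and -0.28. The highest were +/+ cortex female 2 (0.30), +/+ striatum female 2 (0.24) and +/+ striatum male 3 (0.23), where the same contrast of short with long entries was 0.18, 0.16 and 0.24. The part of transcript length in this spread was not tested.

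**Figure D4:**
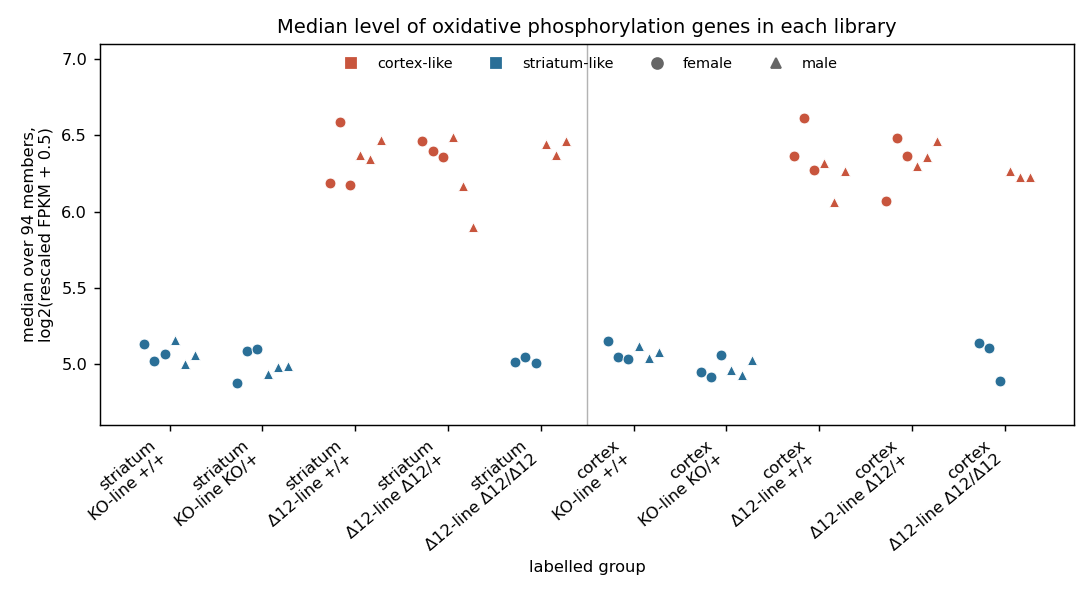
Median over the 94 members of log2(rescaled FPKM + 0.5) (vertical axis) in each of the 60 libraries, by labelled group (horizontal axis) and coloured by class. The cortex-like libraries lie at 5.90 to 6.61 and the striatum-like ones at 4.88 to 5.15, and each Δ12/Δ12 group holds libraries of both classes.

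The largest differences between labelled groups were those between the +/+ libraries of the lines, where line and class cannot be told apart. In labelled striatum, Ndufb8 was at 574, 769 and 919 in +/+ of the Δ12 line and at 68.9, 75.6 and 80.7 in +/+ of the KO line. The groups did not overlap, and Ndufb8 was lower in the KO line by a log2 of -3.30 (SE 0.095, limma, adjusted p = 2.7e-10). Sdha was at 30.6, 34.1 and 36.0 in the Δ12 line and at 60.5, 63.7 and 65.9 in the KO line, again with no overlap (0.90, SE 0.054, adjusted p = 2.81e-08). Over all members, 81 of 94 passed the limma test at an adjusted p under 0.05, 2 higher (Sdha and Ndufa10) and 79 lower, where 79.4% of all entries passed, 41.9% higher and 37.4% lower. After quantile normalization 15 were higher and 55 lower, and the members' median moved from -1.36 to -0.56. The share of all entries that passed on that scale is not reported here.

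In labelled cortex the members differed between the +/+ groups in much the same numbers. There 77 of 93 members passed, 3 higher and 74 lower, with 68.0% of entries passing, 36.5% higher and 31.6% lower. After quantile normalization 17 members were higher and 50 lower, with the share of entries not reported here. The members' median was -1.39, and -0.48 after quantile normalization. On the rescaled FPKM the 3 higher ones were Sdha (1.06), Ndufa6 (0.53) and Ndufa10 (0.42). The smallest adjusted p belonged to members that were lower: Ndufb2 (-3.13), Ndufb8 (-3.20), Ndufv1 (-2.01), Ndufb6 (-2.78) and Uqcr10 (-2.39). In both labelled tissues all 4 subunits of complex II passed, 1 higher and 3 lower, and 7 of 8 of complex III and 14 of 15 of complex V were lower. The mitochondrially encoded genes went the other way, with 13 of 13 higher in the KO line in labelled striatum and 12 of 13 in labelled cortex. All 8 markers of striatal projection neurons were higher in the KO line in both labelled tissues.

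KO/+ against +/+ within the KO line compares libraries of 1 class. In labelled striatum 2 of 94 members passed, 1 in each direction, where 6.91% of all entries did, 3.51% higher and 3.4% lower. At an unadjusted p under 0.05 there were 8 members, against 21.8% of entries. Atp5g1 was at 27.9, 31.6 and 35.6 in +/+ and at 18.0, 23.6 and 28.1 in KO/+, which overlap narrowly, a difference of -0.44 (SE 0.10, limma adjusted p = 0.0248). Ndufa7, an accessory subunit of complex I, was at 53.5, 59.8 and 65.4 in +/+ and at 62.6, 68.8 and 75.1 in KO/+, with overlapping groups, a difference of 0.22 (SE 0.046, limma adjusted p = 0.0198). Neither passed on the deposited FPKM, with a replicate block or in the fit of all 30 libraries of the labelled tissue, and Ndufa7 did not pass after quantile normalization or without the sex covariate. In the same comparison all 8 striatal projection neuron markers had positive differences, 0.41 to 0.54 with Penk highest, and 6 passed by limma. All 4 oligodendrocyte markers had negative ones, -0.435 to -0.26, and 3 passed, among them Mobp (-0.26) and Mag (-0.43). Of 6 cortical excitatory neuron markers 2 passed, 1 in each direction. Lower were also 1 of 5 interneuron and 1 of 5 astrocyte markers, and 1 of 3 ependyma markers was higher. Their part in these values was not tested.

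In labelled cortex no member passed in KO/+ by limma, where 0.0885% of entries did, and 16 of 94 members had an unadjusted p under 0.05, as did 13.9% of entries. The members' median was -0.07 with complex medians from -0.13 in complex II to 0.01 in complex IV, against 0.00 over all entries. Atp5g1 was at 22.9, 25.3 and 28.0 in +/+ and at 23.4, 25.7 and 28.1 in KO/+ there, groups that lie over each other. The test of the difference of the KO/+ effect between the labelled tissues called no member by limma (4 of 94 at an unadjusted p under 0.05) and 0 of 15917 entries, of which 1788 (11.2%) had an unadjusted p under 0.05.

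Δ12/+ against +/+ of the Δ12 line, also within 1 class, gave no called member by limma in either labelled tissue. In striatum 0.00663% of entries passed, 1 of 94 members and 3.22% of entries had an unadjusted p under 0.05, and the members' median was -0.03, or 0.04 after quantile normalization. In cortex 0.0662% of entries passed, 5 of 93 members and 8.37% of entries had an unadjusted p under 0.05, and the median was -0.05, which turned to 0.22 after quantile normalization. The median SE of the complex I members was 0.13 in striatum and 0.16 in cortex, against 0.07 and 0.08 in the KO/+ comparisons. The difference of the Δ12/+ effect between labelled tissues called no member by limma (3 of 94 at an unadjusted p under 0.05) and 0 of 15173 entries (969, or 6.39%, at an unadjusted p under 0.05).

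Δ12/Δ12 against +/+ sets a group of 3 cortex-like and 3 striatum-like libraries against 6 cortex-like ones. The same +/+ libraries served Δ12/+ and Δ12/Δ12, and those of the KO line served their own comparison and that between lines. In labelled striatum 41 of 94 members passed, Sdha higher and 40 lower, where 28.3% of entries passed, 14.7% higher and 13.6% lower. Atp5k was at 41.2, 58.5 and 80.2 in +/+ and at 9.62, 17.6 and 37.1 in Δ12/Δ12, with no overlap (-1.72, SE 0.24, limma adjusted p = 0.0199). Among those that followed were Cox5a (-0.53), Sdhb (-1.07) and Uqcrfs1 (-0.74), at limma adjusted p of 0.0292, 0.0292 and 0.0308. For Cox5a the difference was 0.11 after quantile normalization. Sdha was at 30.6, 34.1 and 36.0 in +/+ and at 31.6, 48.3 and 63.5 in Δ12/Δ12, groups that overlap (0.43, limma adjusted p = 0.044). With the class as a covariate, no member passed, and leaving out 1 library moved the count between 0 and 61. It was 0 without +/+ female 3 or any Δ12/Δ12 female, 1 without +/+ female 1 or 2, and 23 without +/+ male 3.

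In labelled cortex only Atp5k passed, where 0.924% of entries did and 0.65% were lower, and 54 of 94 members had an unadjusted p under 0.05, as did 38.1% of entries. Atp5k was at 46.3, 74.0 and 118 in +/+ and at 8.56, 18.0 and 38.6 in Δ12/Δ12, with no overlap (-1.99, SE 0.34, limma adjusted p = 0.0275). No member passed there with the class as a covariate, and without +/+ male 2 the count was 40, while it was 0 without +/+ male 1, +/+ female 2 or 3, or any Δ12/Δ12 female. The members' median was -0.67 against -0.68 in labelled striatum.

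**Figure D5:**
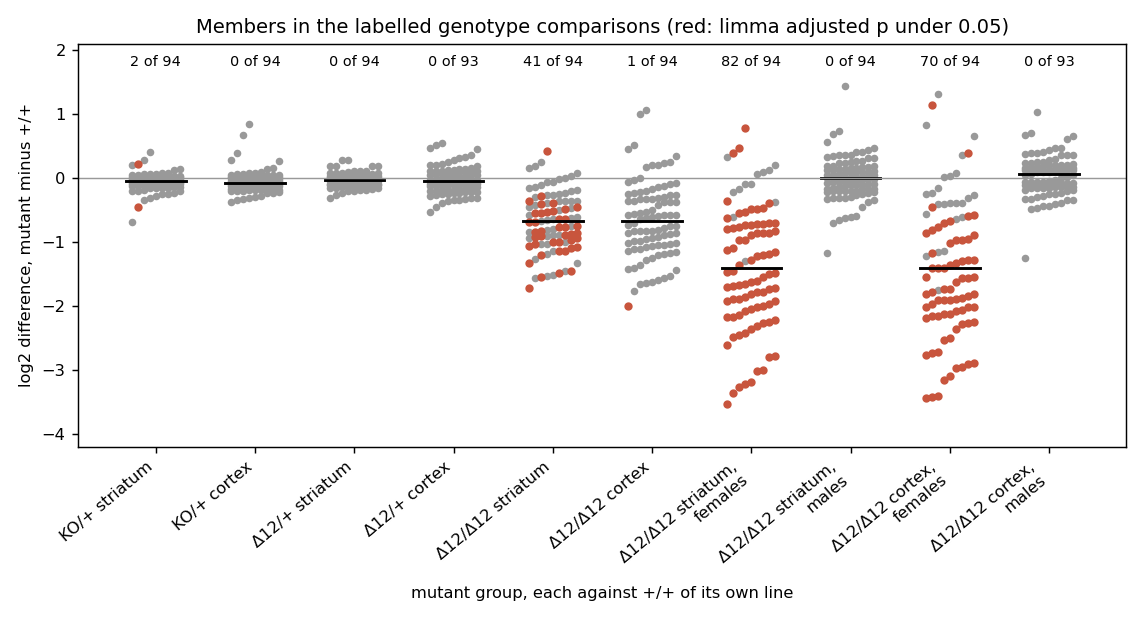
Log2 difference of each member (points) in the 6 labelled comparisons of a mutant group with +/+ of its own line (horizontal axis), in red where the limma adjusted p was under 0.05. The members' medians are -0.05 and -0.07 for KO/+, -0.03 and -0.05 for Δ12/+ and -0.68 and -0.67 for Δ12/Δ12 in labelled striatum and cortex on the rescaled FPKM, and after quantile normalization the Δ12/+ medians turn to 0.04 and 0.22.

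Split by labelled sex after the data were seen, the difference lay in the libraries labelled female, all of which are striatum-like in Δ12/Δ12. Among them 82 of 94 members passed in labelled striatum (71.1% of entries), 3 higher and 79 lower where 37.5% and 33.6% of entries were. In labelled cortex 70 of 94 passed (56.2% of entries), 3 higher and 67 lower where 30.2% and 25.9% of entries were. The medians were -1.41 and -1.40. Among the libraries labelled male, which are cortex-like in both genotypes, no member passed by limma in either tissue. There 0.0133% of entries in striatum and 0.119% in cortex passed. At an unadjusted p under 0.05 there were 10 of 94 members against 8.89% of entries in striatum and 8 of 93 against 6.8% in cortex, and the medians were 0.00 and 0.06. The difference between the labelled sexes passed for 74 members in labelled striatum (55.8% of entries), 4 higher and 70 lower in females relative to males where 28.2% and 27.6% of entries were. In labelled cortex it passed for 68 (43.9% of entries), 1 higher and 67 lower where 22.2% and 21.8% of entries were. Labelled sex and class cannot be told apart here, and by their sex-linked transcripts 5 of the 6 Δ12/Δ12 libraries of labelled striatum and 2 of the 6 of labelled cortex go against their labelled sex. Atp5k, the member called in both tissues, had a difference of -1.17 (SE 0.26) among the labelled males of striatum and of -1.25 (SE 0.27) among those of cortex, with limma p of 0.00419 and 0.00369 that were 0.522 and 0.536 after adjustment.

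By tissue label alone, cortex against striatum over all 60 libraries with line and genotype as covariates, no member and 0 of 16076 entries passed by limma, with 4 of 94 members and 397 entries (2.47%) at an unadjusted p under 0.05. A cortex and a striatum library of the same line, genotype and sex share each number in the labels and may come from 1 mouse, while the fit treats them as independent. With these 30 pairs as a block, added after the data were seen, no member passed by limma either, with 10 of 94 members and 872 entries at an unadjusted p under 0.05, and the same block called no member in either test of a difference between labelled tissues. The members' median was -0.03, with complex medians between -0.06 in complex II and 0.00 in complex V. Each labelled tissue holds 15 cortex-like and 15 striatum-like libraries.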

How the data were processed

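The authors deposited 1 table per library, 60 in all, of gene entries with FPKM and the bounds of a confidence interval, in the column layout of Cufflinks gene-level output. The submitters' processing notes name bcl2fastq 2.20, Trimmomatic 0.30, TopHat2 2.0.14, SAMtools 1.3, HTSeq 0.6.1p1 and GRCm38.p4, for rRNA-depleted directional libraries. Since the deposited FPKM are no counts, limma 3.58.1 in R 4.3.3 was run on log2 values of the deposited FPKM after scaling by the median of ratios, with a pseudocount of 0.5, for entries with a mean of at least 0.5. Of 47597 entries, 23 were left out because their status was not OK in every library. Each fit held the 12 libraries of the groups compared with labelled sex as covariate (24 for differences between tissues, 60 for labelled tissue), and adjusted p (Benjamini-Hochberg) were taken over all entries tested. Groups follow the labels, and p-values measure the spread between libraries as labelled. The class went against the labelled tissue in 30 libraries, and sex-linked transcripts against the labelled sex in 29. Whether the 6 libraries of a group come from 6 mice is therefore not known. Classes were set by Slc17a7 above 100 FPKM, and depth was estimated from the interval bounds, which cover counting error only.

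The members and lists were chosen with earlier results of these data known. Atp5l2-ps, whose name ends in -ps without a digit, was left out with the other pseudogenes. Named members are the core subunits, the paralog sets, the extremes and the highest level of each complex, and up to 5 called members with the smallest adjusted p per comparison, and some genes that this rule names are not reported here. Ndufa6, the assembly factors, the genes of the other lists and Atp5s and Atp5sl were named after their values were seen. The alternatives were the deposited FPKM, quantile normalization, a pseudocount of 0.1, no filter, no sex covariate, a replicate block, the class as covariate, all 30 libraries of a tissue and each library left out in turn. Chosen after seeing the data were the fits by labelled sex, the block over tissue pairs of the same number, the libraries whose class matches the label and the Δ12/Δ12 libraries alone. Longest transcripts are from GENCODE M21, promoter sequences from RefSeq (GRCm38.p6). The scripts were tested on simulated data. Python 3.11.15, pandas 2.3.3 and scipy 1.17.1 were used.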

Additional observations from a re-analysis of the deposited data

Results flagged for a closer look

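One library stood apart from its group in complex II. In KO/+ cortex female 1 the median of the 4 subunits was 4.94 on the log2 scale, against 5.19 to 5.22 in the other 5 libraries of its group. Its gap to the nearest of them was 0.898 of the range of the group, above Dixon's 95% critical value for 6 libraries. Such values were computed for 60 sets of 6 libraries (10 groups and 6 sets of members), and chance alone puts about 1 in 20 above this value.

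The Δ12/Δ12 effect differed between the labelled sexes, by the limma test of the difference itself, for 74 of 94 members in labelled striatum. In labelled cortex it differed for 68 of 94. In striatum 4 were higher and 70 lower in females relative to males, and in cortex 1 was higher and 67 lower. Of all entries 55.8% passed in striatum, 28.2% higher and 27.6% lower. In cortex 43.9% passed, 22.2% higher and 21.8% lower. After quantile normalization 60 and 49 members passed, where 8726 of 15467 and 7117 of 15696 entries did. In Δ12/Δ12 the libraries labelled female are all striatum-like and those labelled male all cortex-like, so labelled sex and class cannot be told apart.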

How the results depend on the processing

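The replicate numbers of the labels did not pair the libraries (mean correlation of same-numbered libraries between -0.093 and 0.008 over the 8 comparisons of groups, and -0.007 over the 30 pairs of a cortex and a striatum library). With a replicate block 0 members passed in KO/+ striatum and 0 in Δ12/Δ12 of either labelled tissue, 82 and 77 passed between the +/+ groups of striatum and cortex, and no member passed in the other comparisons. In KO/+ striatum, where 2 passed, it was 0 on the deposited FPKM, 5 after quantile normalization and 0 in a fit of all 30 libraries of the tissue, and 1 to 3 with 1 library left out (1 without +/+ male 1, +/+ female 3, KO/+ male 3 or KO/+ female 2, and 3 without KO/+ female 3). In KO/+ cortex 1 passed on the deposited FPKM, and in Δ12/+ cortex 1 passed in the fit of 30, against 0 otherwise. Each was 0 throughout with 1 library left out, as was Δ12/+ striatum.

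In Δ12/Δ12 striatum, where 41 passed, it was 8 after quantile normalization, 12 without the filter, 0 without the sex covariate, 0 with the class as covariate, 69 in the fit of 30, 82 in labelled females, 0 in labelled males and 74 for their difference. With 1 library left out it was 0 to 61: 0 without +/+ female 3 or any Δ12/Δ12 female, 1 without +/+ female 1 or 2, and 23 without +/+ male 3. In Δ12/Δ12 cortex, where 1 passed, it was 0 after quantile normalization, without the filter, without the sex covariate and with the class as covariate, 67 in the fit of 30, 70 in labelled females, 0 in labelled males and 68 for their difference. With 1 library left out it was 0 to 40: 40 without +/+ male 2, and 0 without +/+ male 1, +/+ female 2 or 3, or any Δ12/Δ12 female. Between the +/+ groups it was 80 to 83 in striatum and 76 to 79 in cortex with 1 library left out. The cause of these changes was not tested. Except for the fits by labelled sex, the shares of all entries called under these alternatives are not reported here. The counts therefore show how far a result moved and not whether this is particular to the members.

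The members' median difference between the classes was 1.68 on the deposited FPKM and 0.60 after quantile normalization. After quantile normalization 14 members turned from a positive to a negative difference and 2 the other way. Among the named members the first were Atp5a1 (-1.32), Atp5b (-2.54), Atp5g3 (-0.36), Cox5a (-0.39), Cox6a1 (-0.57), Cox6c (-0.47), Cox8a (-1.01), Ndufs1 (-0.34) and Uqcrc1 (-0.15), and the Δ12/Δ12 striatum value of Cox5a turned to 0.11. Of the other values of single called members, 101 kept their side of the threshold under the other scalings, filters and covariates and 30 lost it, as did 38 of 216 with 1 library left out. Depth is known only from the interval bounds, and low members such as Cox7b2 and Cox8b are at the limit of detection.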
